A study of Mus musculus with 12 samples.

Results

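G2 and mitosis genes encode the proteins that carry a cell from the end of DNA replication through chromosome segregation to division. The 40 genes described here were taken by symbol from a list that spans mitotic entry, the kinetochore and spindle checkpoint, chromosome structure, the spindle, cytokinesis and mitotic exit. All 40 were present among the 26219 genes of the RPM table (reads of a gene scaled to a common total per library), and all 40 passed the filter on low values, which kept 11788 genes for testing. The levels came from 12 libraries of 6 mouse lines, with 2 culture replicates per line, made by SC3-seq, which reads the 3′ ends of amplified cDNA, here from 1 ng of total RNA each.

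4 of the lines were germline stem cell-like cells (GSCLCs), derived from testes reconstituted in culture. GSCLC_2 and GSCLC_3 came from condition 2, with the testes held at 37°C for the first 2 weeks and at 34°C in the last 1 week. GSCLC_1 and GSCLC_4 came from condition 1, with 3 weeks at 34°C. The germline stem cell (GSC) lines GSC_1 and GSC_2 are cultured spermatogonial stem cells from separate testes of mice at postnatal day 7. All 6 lines had the background C57BL/6 x 129/SvJcl and the AcrAct_EGFP reporter, and all were cultured in StemPro-34 medium with GDNF, bFGF, LIF, EGF and 1% FBS, per the labels. The line was the unit of the comparison of GSCLC with GSC lines, so that comparison rests on 4 lines against 2. Source and kind of line coincide, so effects of origin from a postnatal or a reconstituted testis cannot be told apart from effects of the cell kind.

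Transcripts of this group are low in G1 and climb towards mitosis, when cyclins A and B with Cdk1 start chromosome condensation and spindle assembly. The anaphase-promoting complex, with Cdc20 and the E2 enzyme Ube2c, then marks securin and cyclin B for destruction. In cultured spermatogonial stem cells, which divide in the presence of GDNF and FGF, these transcripts are commonly read as a sign of cycling cells. In bulk RNA, fewer cells in G2 and mitosis and less RNA of a gene per such cell cannot be told apart.

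Many genes of this group share a promoter architecture, with CCAAT boxes, bound by NF-Y, upstream of a cell cycle genes homology region (CHR), bound by the MuvB complexes with E2F4 or with Mybl2 and Foxm1. RefSeq promoters of build GRCm38.p6, from 250 bases before to 50 bases after the start site, were at hand for 32 of the 40 genes. The CHR letters TTTGAA or TTCGAA, on either strand, were found in 24 of these 32 promoters, a share of 75.0% (95% Wilson interval 57.9% to 86.7%), against 21.7% of the 27025 genes in the promoter table. CCAAT on either strand was also found in 24 of 32, against 41.1% of all genes. Both motifs were present in 21 of 32 promoters, 65.6%, against 8.61% of all genes. No CHR match overlapped a CCAAT match in these promoters. In the 150 bases nearest the start site, 56.2% of the 32 promoters held both, against 2.40% of all genes. A match is a description of the letters only, and binding was not measured.

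The stretches below run from position -150 to +30 of 8 of these genes. The first 6 hold both motifs in the 300 bases and are shown to place them beside the start site; Ccnb1 and Cks2, on which results below turn, hold CCAAT and no CHR match. Capitals mark CHR and CCAAT matches in either orientation, so that CCAAT read on the other strand appears as ATTGG and TTTGAA as TTCAAA.
Cdk1, chr10:69352883-69353062, minus strand: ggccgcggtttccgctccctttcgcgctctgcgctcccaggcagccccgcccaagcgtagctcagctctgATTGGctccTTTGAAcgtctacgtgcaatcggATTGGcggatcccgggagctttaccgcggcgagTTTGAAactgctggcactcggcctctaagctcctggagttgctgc
Ccnb2, chr9:70421525-70421704, minus strand: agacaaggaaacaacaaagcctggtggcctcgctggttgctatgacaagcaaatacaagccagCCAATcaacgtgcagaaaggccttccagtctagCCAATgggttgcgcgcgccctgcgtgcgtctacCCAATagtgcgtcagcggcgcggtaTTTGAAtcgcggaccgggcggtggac
Cdc20, chr4:118437314-118437493, minus strand: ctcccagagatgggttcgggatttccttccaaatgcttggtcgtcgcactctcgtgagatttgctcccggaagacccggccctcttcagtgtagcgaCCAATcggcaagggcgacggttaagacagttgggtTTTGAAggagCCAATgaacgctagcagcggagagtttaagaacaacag
Ube2c, chr2:164769779-164769958, plus strand: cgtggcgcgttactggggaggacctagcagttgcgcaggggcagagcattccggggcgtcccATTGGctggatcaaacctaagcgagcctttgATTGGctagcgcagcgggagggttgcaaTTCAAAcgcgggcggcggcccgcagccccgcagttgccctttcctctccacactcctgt
Top2a, chr11:99024160-99024339, minus strand: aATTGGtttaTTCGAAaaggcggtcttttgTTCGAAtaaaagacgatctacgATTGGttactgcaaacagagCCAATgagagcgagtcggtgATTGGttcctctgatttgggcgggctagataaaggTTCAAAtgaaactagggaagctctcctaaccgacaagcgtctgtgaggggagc
Plk1, chr7:122159285-122159464, plus strand: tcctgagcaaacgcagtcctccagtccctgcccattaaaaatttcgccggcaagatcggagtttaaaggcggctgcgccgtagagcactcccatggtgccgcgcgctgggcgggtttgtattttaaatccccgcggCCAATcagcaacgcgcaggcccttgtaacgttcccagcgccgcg
Ccnb1, chr13:100786457-100786636, minus strand: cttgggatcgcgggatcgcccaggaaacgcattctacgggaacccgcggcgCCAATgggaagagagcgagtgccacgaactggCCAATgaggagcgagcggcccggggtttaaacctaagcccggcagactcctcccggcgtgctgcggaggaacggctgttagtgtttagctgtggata
Cks2, chr13:51645082-51645261, plus strand: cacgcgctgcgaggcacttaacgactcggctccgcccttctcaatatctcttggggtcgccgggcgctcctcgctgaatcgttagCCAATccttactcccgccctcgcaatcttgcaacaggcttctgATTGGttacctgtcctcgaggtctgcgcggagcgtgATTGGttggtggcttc
Cdk1 had CHR matches starting at -71 and -15, Cdc20 at -18 and Ube2c at -29, each with a CCAAT match upstream. Ccnb2 had 3 CCAAT matches, at -87, -54 and -21, and a CHR match at 5 bases into the transcript. Plk1 had a CCAAT match at -14, and its CHR match started at 31, just past the stretch shown. Ccnb1 had CCAAT matches at -99 and -67, and Cks2 at -65, -22 and 15 and, past the stretch, at 33. The 8 promoters without a CHR match were those of Birc5, Ccnb1, Cenpe, Cks2, Mad2l1, Nuf2, Nusap1 and Pttg1, and 5 of them, Birc5, Mad2l1, Nuf2, Nusap1 and Pttg1, held neither motif. The windows of Pttg1 (chr11:43425932-43426231) and Kif2c (chr4:117178723-117179022) lie wholly inside these genes (43420244-43427463 and 117159633-117182624). So do that of Aurka (chr2:172370521-172370820, gene 172356190-172370886) and both of Ect2 (chr3:27153805-27154104 and 27153829-27154128, gene 27097222-27154253). These windows describe start sites within the gene. The CHR matches of Kif2c, Aurka and Ect2 count among the 24, and Aurka and Ect2 count among the 21 with both motifs.

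Between GSCLC and GSC lines, none of the 40 genes passed the threshold of an adjusted p of 0.05 (limma on log2(RPM + 1), Benjamini-Hochberg over 11788 genes), where 3.02% of all genes did, 1.21% higher and 1.81% lower in GSCLC lines. At an unadjusted p under 0.05 there were 5 of 40, Plk1, Cks2, Aurkb, Ccna2 and Cdc20, all with higher values in GSCLC lines, against 16.9% of all genes. The estimated difference was positive for 31 genes and negative for 9, with a median of 0.11 on the log2(RPM + 1) scale; over all 11788 tested genes the median was -0.01, with 5805 positive and 5983 negative. The median size of a difference was 0.17 for the 40 genes and 0.21 for all genes. The differences ran from -0.41 for Cdc25c to 0.52 for Plk1, and the 95% interval of each of the 40 lay within 1 either way, as it did for 75.5% of all genes. The 40 genes had a median level of 122 RPM and all tested genes 31.3 RPM, and these sizes and shares were not matched for level. The plot of differences with their intervals shows the whole set by role.

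**Figure D1:**
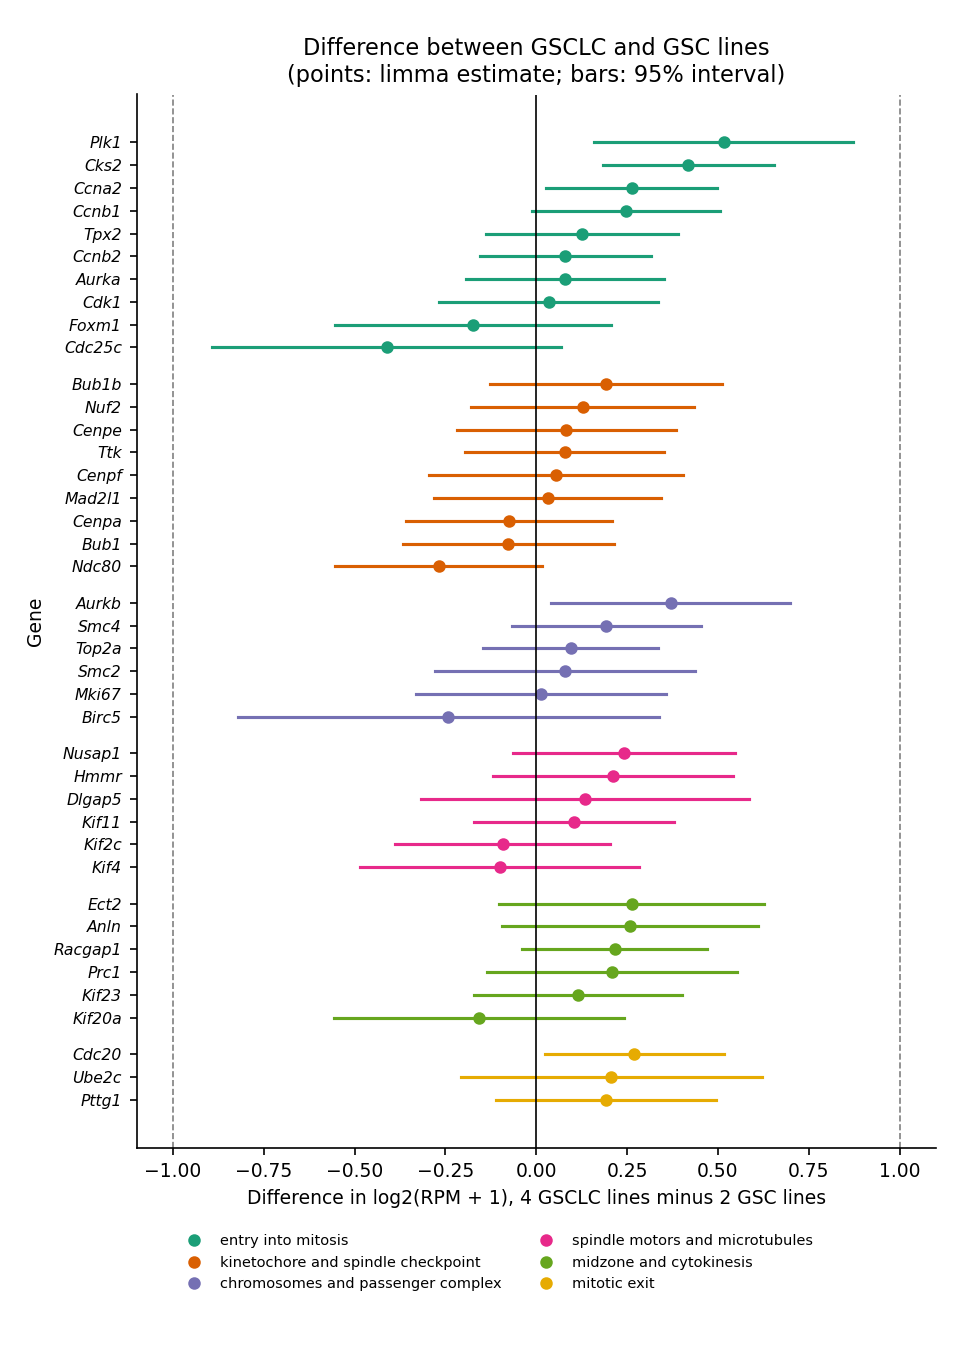
Difference between 4 GSCLC and 2 GSC lines for each of the 40 genes (x axis, log2(RPM + 1), GSCLC minus GSC; points, limma estimate; bars, 95% interval; colours, role; dashed lines, 1 either way). All 40 bars lie between the dashed lines, and 31 points lie to the right of 0, from 0.01 for Mki67 to 0.52 for Plk1.

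The genes of mitotic entry held both ends of that range. Ccna2, the A-type cyclin of S phase and G2, read 372 and 349.8 RPM in GSCLC_2, 356 and 369 RPM in GSCLC_3, 363 and 324 RPM in GSCLC_1 and 433 and 349.6 RPM in GSCLC_4, against 347 and 279 RPM in GSC_1 and 284 and 306 RPM in GSC_2. The highest GSC library, replicate 1 of GSC_1, lay above the lowest GSCLC library and below the other 7, and the line means did not overlap. Ccna2 averaged 365 ± 19.7 RPM in the GSCLC lines and 304 ± 12.8 RPM in the GSC lines (SD, n = 4 and 2 lines), a difference of 0.26 ± 0.11 (SE) with an adjusted p of 0.237 (limma, Benjamini-Hochberg).

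Ccnb1, the B-type cyclin that drives entry into mitosis, read 419 and 428 RPM in GSCLC_2, 357 and 391 RPM in GSCLC_3, 357 and 348 RPM in GSCLC_1 and 434 and 427 RPM in GSCLC_4, against 336 and 345 RPM in GSC_1 and 306 and 341 RPM in GSC_2. Its lowest GSCLC library lay above its highest GSC library, and Ccnb1 was the only one of the 40 genes whose libraries did not overlap in the higher direction, against 3.22% of all genes; none did in the lower direction, against 3.85%. The difference was 0.25 ± 0.12 with an adjusted p of 0.319 (limma, Benjamini-Hochberg). The last bases of Ccnb1 match several processed pseudogenes, among them Ccnb1-ps at 99.5% over 194 bases, so its level may include reads of those copies.

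Cks2, a small subunit of cyclin-dependent kinases, read 486 and 532 RPM in GSCLC_2, 516 and 701 RPM in GSCLC_3, 541 and 563 RPM in GSCLC_1 and 592 and 519.5 RPM in GSCLC_4, against 361 and 488 RPM in GSC_1 and 354 and 468 RPM in GSC_2. The highest GSC library, replicate 2 of GSC_1, lay just above the lowest GSCLC library, and the other 3 GSC libraries lay below all GSCLC libraries. Cks2 averaged 556 ± 40.6 RPM in the GSCLC lines and 418 ± 9.55 RPM in the GSC lines, and its difference of 0.42 ± 0.11 had the smallest adjusted p among the 40 genes, 0.0631 (limma, Benjamini-Hochberg). Without replicate 2 of GSC_1 it was 0.53 with an adjusted p of 0.0333, and without replicate 2 of GSC_2 it was 0.52 with 0.0432, in a range of 0.0333 to 0.486 over all alternatives. Without replicate 1 of GSC_1 it was 0.31 with 0.219, and without replicate 1 of GSC_2 it was 0.32 with 0.156. The GSC libraries with the lower Cks2 levels, replicate 1 of each line, were those with the higher sums of Leydig cell markers, 75.6 and 109 RPM, against 12.1 and 11.7 RPM in replicate 2; the part of this in the level of Cks2 was not tested.

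Plk1, the kinase that promotes mitotic entry, centrosome maturation and kinetochore attachment, read 115 and 121 RPM in GSCLC_2, 112 and 116 RPM in GSCLC_3, 131 and 119 RPM in GSCLC_1 and 67.6 and 106 RPM in GSCLC_4, against 71.1 and 83.5 RPM in GSC_1 and 73.1 and 77.1 RPM in GSC_2. The 7 GSCLC libraries other than replicate 1 of GSCLC_4 lay above all GSC libraries, and that one library lay below them. Plk1 averaged 111 ± 16.8 RPM in the GSCLC lines and 76.2 ± 1.57 RPM in the GSC lines, a difference of 0.52 ± 0.16 with an adjusted p of 0.126 (limma, Benjamini-Hochberg). Without replicate 1 of GSCLC_4 the difference was 0.59 with an adjusted p of 0.0333, and without the line GSCLC_4 it was 0.64 with 0.0233, in a range of 0.0233 to 0.615 over all alternatives.

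Cdk1, the kinase that the mitotic cyclins activate, read 177 and 226 RPM in GSCLC_2, 172 and 184 RPM in GSCLC_3, 203 and 194 RPM in GSCLC_1 and 131 and 179 RPM in GSCLC_4, against 158 and 176 RPM in GSC_1 and 173 and 204 RPM in GSC_2. Its lowest and its highest library were both from GSCLC lines, and the groups overlapped. The difference was 0.03 ± 0.14, with a 95% interval of -0.27 to 0.33. Ccnb2, the other B-type cyclin, differed by 0.08 ± 0.11, with a 95% interval of -0.15 to 0.31. Aurka, the kinase of centrosomes and spindle poles, read 93.8 and 78.5 RPM in GSCLC_2, 80.3 and 96 RPM in GSCLC_3, 98.4 and 81.3 RPM in GSCLC_1 and 79.2 and 98 RPM in GSCLC_4, against 77.9 and 86.1 RPM in GSC_1 and 87.1 and 81.4 RPM in GSC_2. The groups overlapped. Tpx2, which activates and localises Aurka, spanned 126 to 168 RPM over the 12 libraries. Their differences were 0.08 ± 0.12 for Aurka and 0.13 ± 0.12 for Tpx2.

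Cdc25c, a phosphatase that activates Cdk1, had the lowest difference of the 40, -0.41 ± 0.22 with an adjusted p of 0.376 (limma, Benjamini-Hochberg). It read 15.3 and 14.3 RPM in GSCLC_2, 11 and 11.1 RPM in GSCLC_3, 12.3 and 13 RPM in GSCLC_1 and 12.3 and 16.8 RPM in GSCLC_4, against 20.9 and 15.7 RPM in GSC_1 and 19.9 and 15.3 RPM in GSC_2. Line means did not overlap, but replicate 2 of GSCLC_4, at 16.8 RPM, lay above the replicate 2 libraries of both GSC lines. Cdc25c and Ndc80 were the only 2 of the 40 genes with all GSCLC line means below both GSC line means, against 14.9% of all genes. In the higher direction there were 12 of 40, Aurka, Aurkb, Ccna2, Ccnb1, Ccnb2, Cdc20, Cks2, Hmmr, Nusap1, Plk1, Racgap1 and Tpx2, against 13.8% of all genes.

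Foxm1, a transcription factor that activates G2 and mitosis promoters, read 148 and 166 RPM in GSCLC_2, 105 and 86.5 RPM in GSCLC_3, 108 and 119 RPM in GSCLC_1 and 93.9 and 169 RPM in GSCLC_4, against 153 and 127 RPM in GSC_1 and 127 and 141 RPM in GSC_2. GSCLC libraries lay on either side of the GSC libraries: GSCLC_3 and GSCLC_1 were below all of them, and the 2 libraries of GSCLC_4 were apart. The difference was -0.17 ± 0.17 with an adjusted p of 0.663 (limma, Benjamini-Hochberg). Foxm1 lies at chr6:128362994-128375886 (GRCm38.p6), and 48 tested genes lie within 5 Mb of it. Against the GSC lines, these neighbours had a median difference of 0.50 in GSCLC_2, -0.19 in GSCLC_3, -0.06 in GSCLC_1 and 0.42 in GSCLC_4. Foxm1 itself differed by 0.19 in GSCLC_2, -0.51 in GSCLC_3, -0.26 in GSCLC_1 and -0.12 in GSCLC_4, below its neighbours' median in each line. The number of neighbours above Foxm1 was 37 of 48 in GSCLC_2, 42 in GSCLC_3, 37 in GSCLC_1 and 43 in GSCLC_4. Over all tested genes of chromosome 6, the median difference was 0.31 in GSCLC_2 and 0.38 in GSCLC_4. The part of this regional shift in the level of Foxm1 was not tested.

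**Figure D2:**
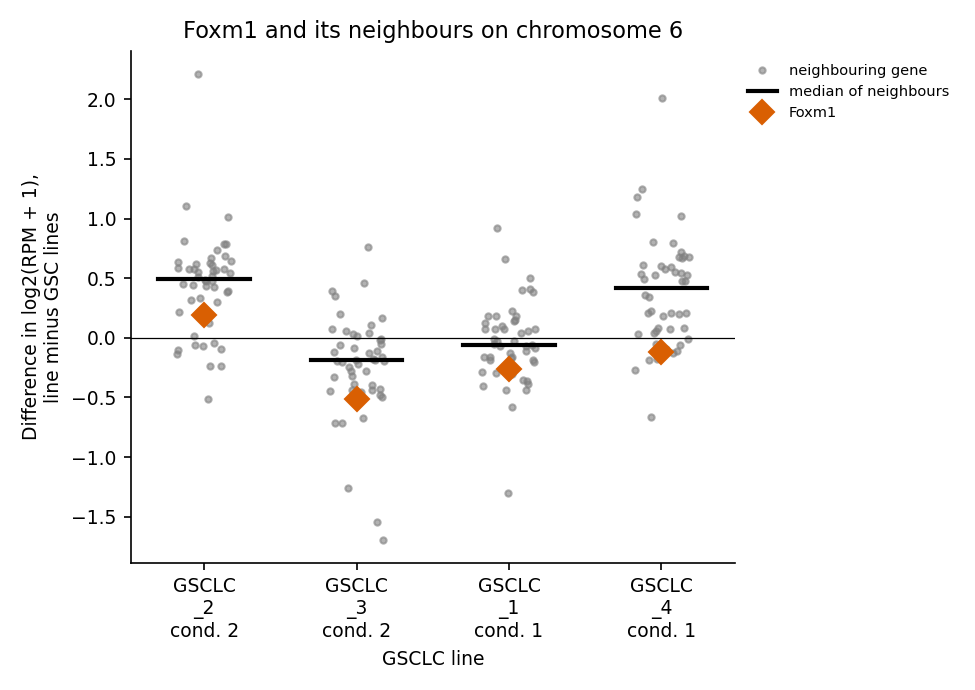
Difference of each GSCLC line from the GSC lines in log2(RPM + 1) (y axis) for Foxm1 (diamonds) and 48 tested genes within 5 Mb on chromosome 6 (grey points; black bars, their median), with lines of condition 2 left and condition 1 right. The neighbours' median is 0.50 in GSCLC_2 and 0.42 in GSCLC_4, and Foxm1 lies below the median in all 4 lines.

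Kinetochore and checkpoint genes had the smallest median size of difference of the 6 role groups, 0.08. Of 9 such genes, 6 had a positive and 3 a negative difference, with a median of 0.05 and none past the threshold. Ndc80, which binds microtubules as part of the Ndc80 complex, read 79 and 84.5 RPM in GSCLC_2, 85.7 and 89.8 RPM in GSCLC_3, 87 and 82.7 RPM in GSCLC_1 and 83.9 and 109.8 RPM in GSCLC_4, against 117 and 97.5 RPM in GSC_1 and 108 and 101 RPM in GSC_2. One GSCLC_4 library lay within the GSC values and the other 7 GSCLC libraries lay below them. Its difference was -0.27 ± 0.13 with an adjusted p of 0.321 (limma, Benjamini-Hochberg), and its 3′ end matches 2 pseudogenes, so its level is uncertain. Nuf2, its partner in the same complex, had a difference of 0.13 ± 0.14 in the other direction.

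Bub1b, the checkpoint protein BubR1, read 156 and 157 RPM in GSCLC_2, 164 and 171 RPM in GSCLC_3, 161 and 161 RPM in GSCLC_1 and 246 and 187 RPM in GSCLC_4, against 174 and 149 RPM in GSC_1 and 148 and 139 RPM in GSC_2. Replicate 1 of GSCLC_4 was the highest, and the other GSCLC libraries lay among the GSC values or just above. Bub1, a checkpoint kinase, differed by -0.08 ± 0.13, the checkpoint kinase Ttk (Mps1) by 0.08 ± 0.13, and Mad2l1, which holds Cdc20 inactive, by 0.03 ± 0.14. Cenpa, the histone H3 variant of centromeres, differed by -0.08 ± 0.13, the kinetochore motor Cenpe by 0.08 ± 0.14, and Cenpf by 0.05 ± 0.16. The 3′ end of Cenpf matches many unrelated transcripts at 95% identity or more, so its level is uncertain too.

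Among the genes of chromosomes and the passenger complex, Aurkb had the largest difference. Aurkb, the kinase of the chromosomal passenger complex that corrects attachments, read 162 and 158 RPM in GSCLC_2, 152 and 126 RPM in GSCLC_3, 129 and 115 RPM in GSCLC_1 and 170.3 and 175 RPM in GSCLC_4, against 112 and 113 RPM in GSC_1 and 124 and 105 RPM in GSC_2. In 7 of the 8 GSCLC libraries the level lay above all GSC libraries, and replicate 2 of GSCLC_1 lay within them. Aurkb averaged 148 ± 22.4 RPM in the GSCLC lines and 114 ± 1.37 RPM in the GSC lines, a difference of 0.37 ± 0.15 with an adjusted p of 0.232 (limma, Benjamini-Hochberg).

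Birc5 (survivin), a subunit of the same complex, read 117 and 117 RPM in GSCLC_2, 98.7 and 90.8 RPM in GSCLC_3, 139 and 127 RPM in GSCLC_1 and 31.6 and 99.6 RPM in GSCLC_4, against 98.4 and 125 RPM in GSC_1 and 112 and 119 RPM in GSC_2. The 31.6 RPM in replicate 1 of GSCLC_4 stood apart from all other libraries, which ran from 90.8 RPM upwards. The difference was -0.24 ± 0.27 with an adjusted p of 0.694 (limma, Benjamini-Hochberg), and it was 0.01 without the line GSCLC_4.

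Top2a, the topoisomerase that untangles sister chromatids, read 504 and 491 RPM in GSCLC_2, 540.0 and 609 RPM in GSCLC_3, 543 and 534 RPM in GSCLC_1 and 483 and 489 RPM in GSCLC_4, against 494 and 512 RPM in GSC_1 and 457 and 496 RPM in GSC_2. The groups overlapped, and the difference was 0.09 ± 0.11. Mki67, which coats mitotic chromosomes and is the antigen of the Ki-67 proliferation stain, read 179 and 153 RPM in GSCLC_2, 120.1 and 122 RPM in GSCLC_3, 170.1 and 146 RPM in GSCLC_1 and 177 and 187 RPM in GSCLC_4, against 159 and 140.2 RPM in GSC_1 and 152 and 164 RPM in GSC_2. Both libraries of GSCLC_3 lay below the GSC libraries and both of GSCLC_4 above them, and its difference was 0.01 ± 0.16, with a 95% interval of -0.33 to 0.36. The condensin subunit Smc2 read 117 and 86.9 RPM in GSCLC_2, 80.9 and 77.6 RPM in GSCLC_3, 95.9 and 94.8 RPM in GSCLC_1 and 117 and 117 RPM in GSCLC_4, against 113 and 88.3 RPM in GSC_1 and 83.4 and 85.7 RPM in GSC_2. It was high in both libraries of GSCLC_4 and in replicate 1 of GSCLC_2 and of GSC_1, so the groups overlapped. Its difference was 0.08 ± 0.16, and its partner Smc4 differed by 0.19 ± 0.12.

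The spindle group comprised 6 genes with a median difference of 0.12 and none past the threshold. Nusap1, which bundles microtubules, differed by 0.24 ± 0.14, and Hmmr, a spindle assembly factor, by 0.21 ± 0.15. Kif11, the motor that pushes spindle poles apart, differed by 0.10 ± 0.13, the chromosome motor Kif4 by -0.10 ± 0.18, the microtubule depolymerase Kif2c by -0.09 ± 0.14 and the spindle protein Dlgap5 by 0.13 ± 0.21. The 3′ ends of Kif2c and Dlgap5 match other transcripts, so both levels are uncertain.

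The 6 genes of the midzone and cytokinesis had a median difference of 0.21, with none past the threshold. Anln, which links actin and septins at the cleavage furrow, read 148 and 129 RPM in GSCLC_2, 109.7 and 111 RPM in GSCLC_3, 122 and 91 RPM in GSCLC_1 and 143 and 146 RPM in GSCLC_4, against 127 and 101 RPM in GSC_1 and 97.2 and 91.1 RPM in GSC_2. Its libraries were high in GSCLC_2 and GSCLC_4, and one library of GSCLC_1 matched the lowest of the GSC values. Ect2, the exchange factor that activates RhoA, differed by 0.26 ± 0.17, and Racgap1, its partner at the midzone, by 0.22 ± 0.12. Kif23, the motor that forms centralspindlin with Racgap1, differed by 0.11 ± 0.13, and Prc1, the midzone bundler, by 0.21 ± 0.16. Kif20a, the midzone motor that relocates Aurkb in anaphase, differed by -0.16 ± 0.18. The last 300 bases of Prc1 and of Kif20a are shared with the neighbouring genes Rccd1 and Cdc23, so their reads may not have been told apart.

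All 3 genes of mitotic exit had positive differences. Cdc20, the activator of the anaphase-promoting complex, read 220.1 and 233 RPM in GSCLC_2, 215 and 260.4 RPM in GSCLC_3, 255 and 253 RPM in GSCLC_1 and 283 and 225 RPM in GSCLC_4, against 182 and 236 RPM in GSC_1 and 201 and 189 RPM in GSC_2. One GSC library, replicate 2 of GSC_1, lay among the GSCLC values, and the other 3 lay below all of them. The difference was 0.27 ± 0.11 with an adjusted p of 0.245 (limma, Benjamini-Hochberg). Ube2c, the E2 enzyme of the complex, read 232 and 220.2 RPM in GSCLC_2, 225 and 207 RPM in GSCLC_3, 196 and 214 RPM in GSCLC_1 and 145 and 121 RPM in GSCLC_4, against 135 and 204 RPM in GSC_1 and 176 and 155 RPM in GSC_2. The libraries of GSCLC_2 and GSCLC_3 lay above all GSC libraries, those of GSCLC_4 lay in or below the lower part of the GSC range, and the difference was 0.21 ± 0.19. The 3′ end of Ube2c holds a stretch that matches transcripts of other genes, among them Mdc1, Med16 and Slx1b, at 95% identity or more, so its level is uncertain. Pttg1 (securin), which holds separase until anaphase, read 218 and 264 RPM in GSCLC_2, 289.8 and 267 RPM in GSCLC_3, 211 and 218 RPM in GSCLC_1 and 199.6 and 216 RPM in GSCLC_4, against 194 and 243 RPM in GSC_1 and 199 and 186 RPM in GSC_2, with both libraries of GSCLC_3 above all GSC libraries and a difference of 0.19 ± 0.14.

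**Figure D3:**
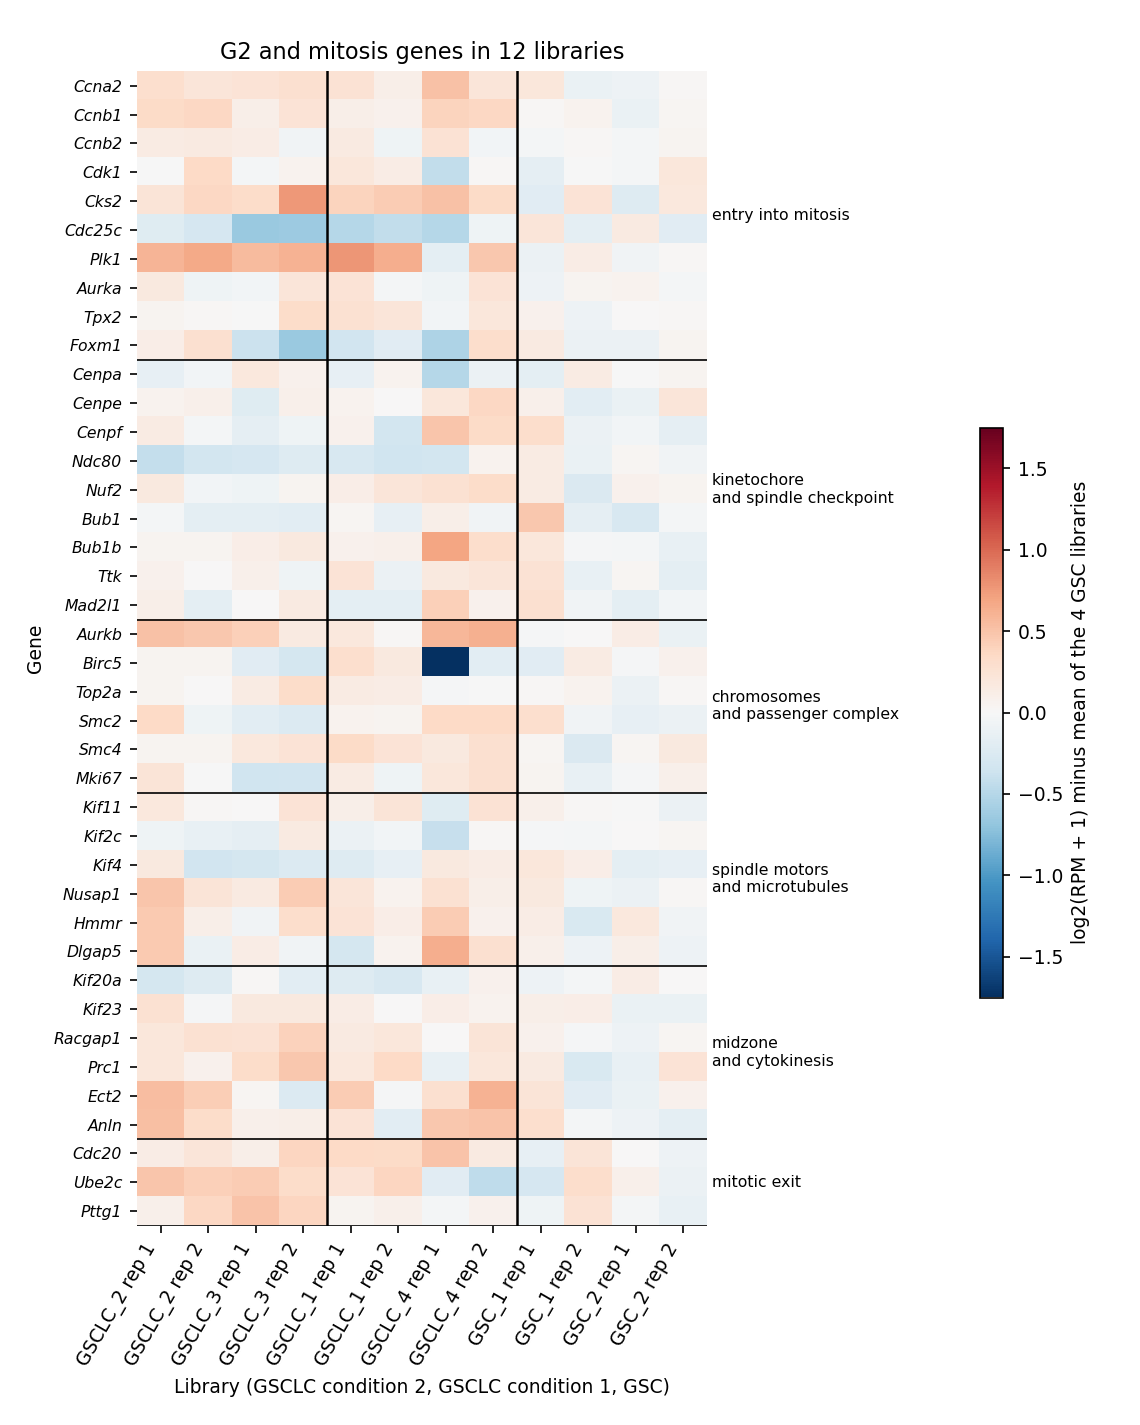
Level of each of the 40 genes in each of the 12 libraries, as log2(RPM + 1) minus the mean of the 4 GSC libraries (colour), with genes by role and libraries by line (condition 2, condition 1, GSC). Most cells are pale; the darkest is Birc5 in replicate 1 of GSCLC_4, at 31.6 RPM, and the row of Plk1 is red in 7 of the 8 GSCLC libraries.

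The levels were steady over the whole data set. For 39 of the 40 genes the highest library was under 2-fold above the lowest, against 44.5% of all tested genes, and the exception was Birc5. The median level was 122 RPM for the 40 genes and 31.3 RPM for all tested genes. The shares were not matched for level, so the steadiness is not shown to be particular to these genes. The lowest value of any of the 40 in any library was 11.0 RPM, for Cdc25c in GSCLC_3. The read number behind the lowest of the 40 was 39 to 81 per library, and behind the highest 1517 to 2599, as implied by the steps between low RPM values.

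Differences among the 6 lines were tested on single libraries against the spread between culture replicates, so these tests speak for these lines only. Of the 40 genes, 4 passed the threshold, against 20% of all genes. The limma F test gave adjusted p-values (Benjamini-Hochberg) of 0.0117 for Plk1, 0.0153 for Ube2c, 0.0167 for Aurkb and 0.0483 for Birc5. Without the variance trend none of the 4 passed, with adjusted p-values of 0.0921 for Plk1, 0.13 for Ube2c, 0.0939 for Aurkb and 0.27 for Birc5, and without the filter on low values only Aurkb did, at 0.0454. The call of Birc5 was lost in 14 of 20 alternative settings, among them a pseudocount of 0.5, at 0.0516, and the loss of any one library other than replicate 2 of GSCLC_4, at 0.0632 to 0.203, the highest without replicate 1 of GSCLC_4; over all alternatives its adjusted p ran from 4.1e-06 to 0.27. Ube2c missed it without replicate 2 of GSCLC_4, at 0.0507. Those of Plk1 ran from 0.000946 to 0.0921, of Aurkb from 0.0144 to 0.0939 and of Ube2c from 0.00278 to 0.13.

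The lines did not share one pattern. In the plot of 6 genes by line, Plk1 is high in GSCLC_2, GSCLC_3 and GSCLC_1, and Aurkb is highest in GSCLC_4 and GSCLC_2. Ube2c is lowest in GSCLC_4, where Aurkb and Ccnb1 are highest.

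**Figure D4:**
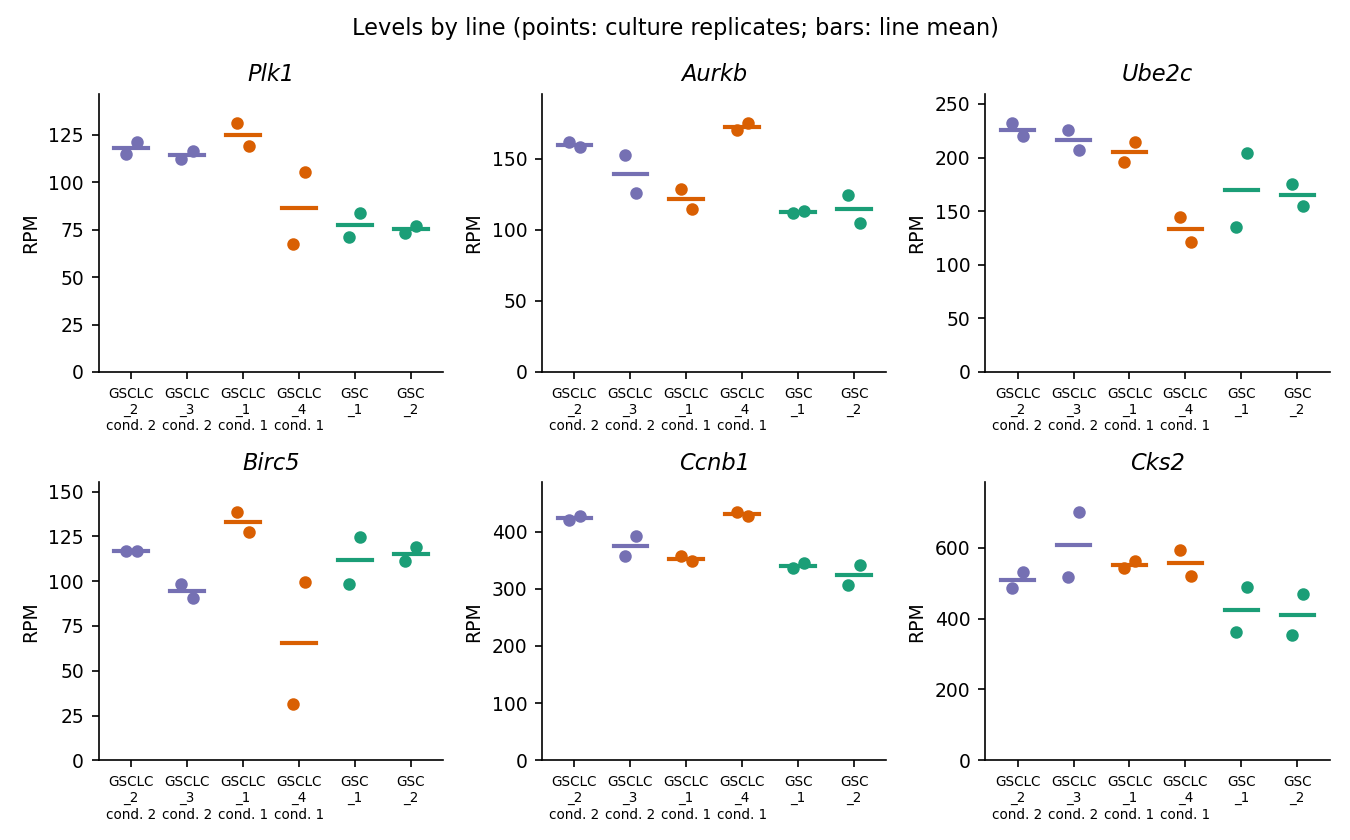
RPM (y axes, from 0) of 6 genes in each line, with points for the 2 culture replicates and bars for the line mean, and lines of condition 2, condition 1 and GSC from left to right. Plk1 lies at 106 to 131 RPM in 7 GSCLC libraries and 71.1 to 83.5 RPM in the 4 GSC libraries; Birc5 in replicate 1 of GSCLC_4 lies at 31.6 RPM.

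Each GSCLC line was also set against the mean of both GSC lines, with limma on single libraries; the 4 comparisons share the GSC libraries. In GSCLC_2, 3 of the 40 genes rose, against 5.47% of all genes, and none fell, against 6.26%. These were Plk1 by 0.63 ± 0.16 (adjusted p 0.0143, limma, Benjamini-Hochberg), Aurkb by 0.49 ± 0.13 and Ccnb1 by 0.35 ± 0.11. In GSCLC_3, 3 rose, against 5.17%, and none fell, against 9.09%: Plk1 by 0.58 ± 0.16 (adjusted p 0.02, limma, Benjamini-Hochberg), Cks2 by 0.54 ± 0.15 and Pttg1 by 0.44 ± 0.13. In GSCLC_1, 1 rose, against 3.31%, and none fell, against 3.63%: Plk1 by 0.71 ± 0.16 (adjusted p 0.0104, limma, Benjamini-Hochberg).

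In GSCLC_4, 4 of the 40 rose, against 9.65% of all genes, and 1 fell, against 6.4%. Those that rose were Aurkb by 0.60 ± 0.13 (adjusted p 0.004, limma, Benjamini-Hochberg), Bub1b by 0.50 ± 0.13, Anln by 0.49 ± 0.15 and Ccnb1 by 0.38 ± 0.11. Birc5 fell, with a difference of -0.99 ± 0.26 (adjusted p 0.0142, limma, Benjamini-Hochberg). Without replicate 1 of GSCLC_4, which held the low Birc5 value, only Aurkb of these 5 passed. With either of its own libraries left out, GSCLC_1 or GSCLC_2 had no gene of the 40 past the threshold, and GSCLC_3 had Cks2 or none. The counts of all genes in these settings were 166 and 260 in GSCLC_1, 416 and 579 in GSCLC_2 and 1026 and 770 in GSCLC_3. GSC libraries moved the counts of the 40 too, and those of all genes with them. Without replicate 1 of GSC_1 there were 9 in GSCLC_4, beside 1853 of all genes, and 0 in GSCLC_3, beside 1287. Without replicate 2 of GSC_1 there were 3 in GSCLC_1, beside 713. Without replicate 1 of GSC_2 there were 3 in GSCLC_4, beside 1335, and 1 in GSCLC_3, beside 1245. Without replicate 2 of GSC_2 there was 1 in GSCLC_2, beside 820. Without replicate 1 or replicate 2 of GSCLC_4 there were 5 in GSCLC_2, beside 1478 and 1476 of all genes. Without the variance trend Aurkb in GSCLC_4 was the only one to pass in any line.

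Culture condition of the reconstituted testes was compared as 2 lines against 2, in a fit that held the GSC lines as well. No gene of all 11788 passed the threshold, a percentage of 0, and 4.68% were under 0.05 before adjustment. Of the 40 genes, 1 was, Ube2c, which averaged 221 ± 6.89 RPM in condition 2 lines and 169 ± 51.1 RPM in condition 1 lines (SD, n = 2 lines each). The difference was 0.42 ± 0.19, with an unadjusted p of 0.0487 and an adjusted p of 0.933 (limma, Benjamini-Hochberg), and the 2 condition 1 lines differed from each other by more than the conditions did, at 205 RPM in GSCLC_1 and 133 RPM in GSCLC_4. Pttg1 averaged 259.8 ± 26.2 RPM in condition 2 lines and 211 ± 4.80 RPM in condition 1 lines, a difference of 0.29 ± 0.14. Line means did not overlap for 5 genes that were higher in condition 2, Kif23, Nusap1, Pttg1, Racgap1 and Ube2c, against 9.28% of all genes, and for 6 that were lower, Aurka, Bub1, Cdc20, Nuf2, Smc4 and Ttk, against 21.6%. The 95% interval of the difference lay within 1 either way for all 40, against 74.8% of all genes, again not matched for level.

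Summed over the 40 genes, the level was 6569 and 6474 RPM in GSCLC_2, 6300 and 6688 RPM in GSCLC_3, 6521 and 6267 RPM in GSCLC_1 and 6520 and 6625 RPM in GSCLC_4, against 6030 and 5907 RPM in GSC_1 and 5610 and 5903 RPM in GSC_2. All 8 GSCLC libraries lay above all 4 GSC libraries. The sums averaged 6496 ± 75.2 RPM in the GSCLC lines and 5862 ± 149.9 RPM in the GSC lines (SD over lines, n = 4 and 2), a ratio of 1.11; no test was made of this sum. Cks2 gave 21.8% of the difference of 633 RPM, Ccnb1 9.99% and Ccna2 9.56%. With these 3 genes left out, the sums still did not overlap, at 5031 to 5329 RPM over the GSCLC libraries and 4666 to 4985 RPM over the GSC libraries.

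By role, the sum of the entry genes was 2246 ± 34.9 RPM in the GSCLC lines and 1929 ± 21.2 RPM in the GSC lines, and its libraries did not overlap. Of the difference in the entry sum, Cks2 gave 138 RPM, Ccnb1 63.3 RPM and Ccna2 60.5 RPM. The sum of the passenger complex and chromosome genes was 1332 ± 25.9 RPM in the GSCLC lines and 1228 ± 5.83 RPM in the GSC lines. It was again without overlap, but the lowest GSCLC library, at 1276 RPM, lay close to the highest GSC library, at 1266 RPM. For kinetochore and checkpoint genes it was 1285 ± 82.4 RPM in the GSCLC lines and 1275 ± 67 RPM in the GSC lines, and libraries overlapped. Spindle genes summed to 352 ± 7.90 RPM in the GSCLC lines and 332 ± 10.4 RPM in the GSC lines, midzone and cytokinesis genes to 606 ± 27.5 RPM in the GSCLC lines and 525 ± 26 RPM in the GSC lines, and mitotic exit genes to 674 ± 58 RPM in the GSCLC lines and 574 ± 31 RPM in the GSC lines, each with overlapping libraries. The median differences per gene were 0.10 for entry and 0.09 for chromosome genes, below the 0.21 of midzone and 0.21 of exit genes.

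Other genes of the cycle were read beside the 40. A list of 74 other mitosis genes in the table summed to 9384 ± 191 RPM in the GSCLC lines and 9012 ± 247 RPM in the GSC lines, with overlapping libraries. Of the 73 tested, none passed the threshold between GSCLC and GSC lines, and the median difference was 0.09, with 49 positive and 24 negative. The 52 genes of DNA replication and S phase summed to 9076 ± 365 RPM in the GSCLC lines and 8908 ± 973 RPM in the GSC lines, also overlapping. Their median difference was -0.01. Against 3.02% of all genes, 1 of 51 tested genes of this list passed the threshold. That gene was Rfc5, a subunit of the clamp loader, at 174 ± 39.99 RPM in the GSCLC lines and 94.4 ± 2.12 RPM in the GSC lines, a difference of 0.85 ± 0.19 (adjusted p 0.0389, limma, Benjamini-Hochberg). It missed the threshold in 10 of 27 alternative settings, over adjusted p-values of 0.00272 to 0.330, among them those without replicate 2 of GSCLC_2, replicate 1 of GSCLC_3 or replicate 2 of GSCLC_4, and without any one whole line but GSCLC_3. Pcna, the sliding clamp, differed by -0.06 ± 0.11, and Mcm2, a subunit of the replicative helicase, by 0.18 ± 0.17. The ratio of the 40 genes' sum to the S phase sum was 0.651 to 0.863 over the GSCLC libraries and 0.610 to 0.702 over the GSC libraries.

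**Figure D5:**
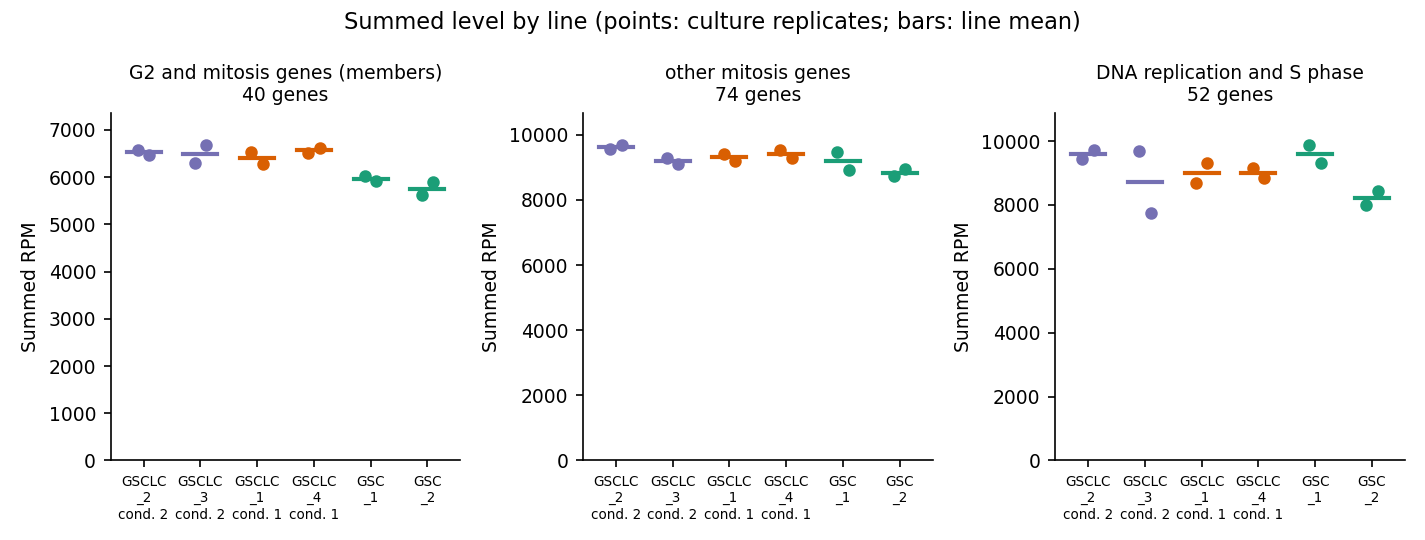
Summed RPM (y axes, from 0) per library for the 40 genes, for 74 other mitosis genes and for 52 genes of DNA replication and S phase, with points for culture replicates and bars for line means, and lines of condition 2, condition 1 and GSC from left to right. The GSCLC libraries of the left panel lie at 6267 to 6688 RPM and the GSC libraries at 5610 to 6030 RPM; in the other panels the kinds of line overlap.

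Of 14 tested genes of the anaphase-promoting complex and its inhibitor, 1 rose in GSCLC lines, against 1.21% of all genes, and none fell, against 1.81%. Anapc7, a scaffold subunit, averaged 36.3 ± 2.43 RPM in the GSCLC lines and 18.2 ± 4.38 RPM in the GSC lines, a difference of 0.97 ± 0.19 (adjusted p 0.0208, limma, Benjamini-Hochberg). It missed the threshold in 5 of 27 alternative settings, over adjusted p-values of 0.00696 to 0.272, among them the one without replicate 2 of GSCLC_4 and those without the whole line GSC_1, GSC_2 or GSCLC_1. Fzr1, the activator used after Cdc20, differed by 0.18 ± 0.13. Among 22 tested regulators of the G2 and mitosis promoters none passed; Mybl2 differed by -0.17 ± 0.15, Lin9 of the MuvB core by -0.08 ± 0.22 and E2f1 by -0.01 ± 0.20. None of 15 tested genes of cohesin and its regulators passed.

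CDK inhibitors and genes of quiescence had 1 gene of 12 higher, against 1.21% of all genes, and 1 lower, against 1.81%. Cdkn1b (p27) averaged 11 ± 4.97 RPM in the GSCLC lines and 3.26 ± 0.211 RPM in the GSC lines, a difference of 1.45 ± 0.35 (adjusted p 0.048, limma, Benjamini-Hochberg). It reached the 5 RPM of the filter in GSCLC libraries only, so it was tested only through the lines in which it was higher. Without the filter its adjusted p was 0.142 (limma, Benjamini-Hochberg). Cdkn1a (p21), a p53 target, averaged 44.8 ± 6.15 RPM in the GSCLC lines and 82 ± 27.2 RPM in the GSC lines, a difference of -0.83 ± 0.20 (adjusted p 0.0496, limma, Benjamini-Hochberg). Both adjusted p-values lay just under the threshold. Of the 27 alternative settings, 17 ended the call of Cdkn1b, over adjusted p-values of 0.00938 to 0.362, and 20 ended that of Cdkn1a, over 0.0248 to 0.492; for each gene, leaving out at least 1 library or the whole line did so for several lines of both kinds.

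Across libraries, the median Pearson correlation between pairs was 0.14 over the 12 libraries and 0.16 over the 6 line means, against 0.02 and 0.03 over all pairs of tested genes; libraries of a line share a culture, and no p is given. Among pairs that act together, Aurka and its activator Tpx2 had 0.61 over libraries and 0.86 over line means, and Kif23 and Racgap1, which together form centralspindlin, had 0.44 and 0.75. Other such pairs had values near or below 0: Ndc80 and Nuf2 had 0.03 and -0.21, Cdk1 and Ccnb1 -0.09 and -0.24, and Smc2 and Smc4 0.08 and -0.09. Cdc20 and Ube2c had 0.27 and 0.10. Aurkb and Birc5 had -0.46 and -0.68, with the outlying low Birc5 value in replicate 1 of GSCLC_4, where Aurkb was high at 170.3 RPM.

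The germ cell markers Dazl and Ddx4, RNA-binding proteins of germ cells, were present in every library, with Dazl at 1424 ± 75.4 RPM in the GSCLC lines and 1293 ± 21.7 RPM in the GSC lines and Ddx4 at 521 ± 34.4 RPM in the GSCLC lines and 478 ± 78.6 RPM in the GSC lines. None of 18 germ cell genes passed the threshold. Their differences were positive for 7, as for Dazl and Ddx4, and negative for 11. They ran from -2.08 to 1.48, with a median of -0.12. Among the 6 lines, 5 of the 18 passed, against 20% of all genes. Fibroblast genes summed to 491 to 884 RPM over the GSCLC libraries and 627 to 1342 RPM over the GSC libraries. In GSCLC lines 1 of 21 tested genes was higher, against 1.21% of all genes, and 2 were lower, against 1.81%. The differences of the 21 were negative for 18 and positive for 3, with a median of -0.70. Among the 6 lines, 17 of the 21 passed, against 20% of all genes. The high GSC sums were those of GSC_2, with a line mean of 1278 RPM, while GSC_1, at 655 RPM, lay within the range of the GSCLC lines, 567.8 to 788 RPM. The 14 Sertoli genes, with Amh at 0 in every library, summed to 28.6 to 134 RPM over the GSCLC libraries and 42.4 to 152 RPM over the GSC libraries, with overlapping libraries. Of 5 tested Sertoli genes, 1, Clu, was past the threshold and lower in GSCLC lines, against 1.81% of all genes. The other 4 had positive differences that did not pass, and the median over the 5 was 1.26. Among the Sertoli genes, Wt1 was at most 29.8 RPM in GSCLC and 5.22 RPM in GSC libraries, and Gata4 9.02 and 3.59 RPM. Sox9 went the other way, at most 2.87 and 7.11 RPM. Genes can thus enter this median through the libraries in which they are higher, and it is not shown to be a gain. GSCLC_4 had the highest Sertoli sums of the GSCLC lines, 134 and 120.4 RPM. Leydig genes summed to 3.99 to 8.44 RPM over the GSCLC libraries and 11.7 to 109 RPM over the GSC libraries. Hsd3b1 was at 0 in all GSCLC libraries and Cyp17a1 at 0 in all 12. Of 3 tested Leydig genes, 2 were lower in GSCLC lines, against 1.81% of all genes. These 2, Cyp11a1 and Hsd3b1, reached the 5 RPM of the filter only in replicate 1 of the GSC lines. They were thus tested only through the lines in which they were higher. Replicate 1 of both GSC lines stood apart, with Leydig sums of 75.6 RPM in GSC_1 and 109 RPM in GSC_2, against 12.1 and 11.7 RPM in their replicate 2. The Sertoli sums split in the same way, at 98.1 and 152 RPM in replicate 1 and 42.4 and 43.6 RPM in replicate 2. Macrophage and endothelial genes summed to 11.9 to 24.6 RPM over the GSCLC libraries and 25.8 to 37 RPM over the GSC libraries. Of their 4 tested genes, 1 was lower in GSCLC lines, against 1.81% of all genes. This gene, Fcer1g, reached 5 RPM in GSC libraries only, so the same limit holds. The part of these other cells in the differences of the 40 genes was not tested.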

How the data were processed

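SC3-seq libraries from 6 lines, with 2 culture replicates each, were analysed. The authors deposited 1 table of RPM values, reads scaled to a common library total, which sum to 999885 to 999962 per library. The notes name cutadapt 1.3, TopHat 1.4.1, Cufflinks 2.2.0 and the builds mm10 and GRCm38, per the submitters' processing notes; the sources used here give neither their roles nor whether strand was counted. Even steps of 0.215 to 0.33 RPM imply 3031709 to 4644186 reads per library, so a floor of 3 reads is 0.646 to 0.99 RPM; this covers counting error only. No count test was run.

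The 11788 of 26219 genes that reached 5 RPM in 2 or more libraries were tested as log2(RPM + 1), a scale that understates changes of low genes, with limma 3.58.1 in R 4.3.3, a variance trend and two-sided p-values adjusted by Benjamini-Hochberg over all 11788 genes. GSCLC against GSC lines and condition 2 against condition 1 used line means. Differences among lines and each line against GSC used single libraries; those p-values measure the spread between culture replicates. Intervals are 95%. The scripts were tested on simulated data. Transcript ends were compared over their last 300 bases (GENCODE M21), taking matches of 95% or more over at least 100 bases. Named genes are members past a threshold in any test, those with the smallest p per test, and a fixed set of well known members. The members and all lists were chosen with earlier results of these data known. Alternatives changed the pseudocount, filter, scaling, variance trend, unit and replicate block, and left out each library or line.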

Additional observations from a re-analysis of the deposited data

Results flagged for a closer look

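The 40 genes were examined for a library that stood apart from the rest of its group, by Dixon's gap criterion at 95%, in the 8 GSCLC libraries, the 4 GSC libraries and the 4 GSCLC line means, 120 groups in all. Chance flags about 1 group in 20, and 6 values were flagged. Of these, 4 came from replicate 1 of GSCLC_4. There Birc5 was 31.6 RPM, against 90.8 to 139 RPM in the other GSCLC libraries, and Plk1 was 67.6 RPM, against 106 to 131 RPM. In the same library Bub1b was 246 RPM, against 156 to 187 RPM in the other GSCLC libraries, and Ccna2 was 433 RPM, against 324 to 372 RPM. Replicate 2 of GSCLC_4 had Ndc80 at 109.8 RPM, against 79.0 to 89.8 RPM in the other GSCLC libraries. Among the GSC libraries, replicate 1 of GSC_1 had Smc2 at 113 RPM, against 83.4 to 88.3 RPM. Of the largest differences between the culture replicates of a line, the one in GSCLC_4, for Birc5, came to 1.63 on the log2(RPM + 1) scale, and those in the other 5 lines were 0.40 to 0.62.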

How the results depend on the processing

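The count of all genes that passed between GSCLC and GSC lines (356) became 142 without the filter on low values and 645 with single libraries and line as a random effect, and leaving out libraries or lines gave 13 to 533, the lowest without the line GSC_2. Over all tested genes, replicate numbers showed little pairing of the samples: over 15 pairs of lines the correlation of same-numbered deviations ran from -0.12 to 0.11, and 2 were over 0.1. Such a correlation cannot exclude a split in a few genes, and the Leydig and Sertoli sums did split by replicate number in both GSC lines. With a replicate block the single-library count was 592, with none of the 40 genes, and the block gave 6 of the 40 among lines. Of the 40 genes, leaving out a library or line gave 0 to 1 past the threshold between GSCLC and GSC lines. Among the lines, the count of all genes (2362) became 1181 without the filter and 1334 without the variance trend, and of the 40 it became 1 and 0. Without the filter, the counts of all genes for single lines were 349 in GSCLC_1, 811 in GSCLC_2 and 1095 in GSCLC_3, with 0, 1 and 0 of the 40 genes, and 3 of the 40 in GSCLC_4. Without the variance trend, GSCLC_1 had 531 genes in all, and of the 40 genes there were 0 in GSCLC_1, GSCLC_2 and GSCLC_3 and 1 in GSCLC_4; median ratio scaling gave 3 in GSCLC_4. Leaving out single libraries gave 166 to 909 genes in GSCLC_1 (0 to 3 of the 40), 416 to 1478 in GSCLC_2 (0 to 5), 770 to 1835 in GSCLC_3 (0 to 4) and 737 to 1951 in GSCLC_4 (1 to 9). Differences near 0 changed sign on leaving out libraries or lines, with ranges of -0.0645 to 0.13 for Mki67, -0.0516 to 0.119 for Cdk1, -0.0408 to 0.199 for Smc2 and -0.445 to 0.0089 for Birc5. Leaving out Top2a lowered the summed level to 6025 RPM in GSCLC_2, 5920 in GSCLC_3, 5855 in GSCLC_1, 6087 in GSCLC_4, 5465 in GSC_1 and 5280 in GSC_2. The cause of these changes was not tested. Quantile and median ratio scaling left 31 positive and 9 negative differences.

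With 2 GSC lines the interval of a difference is wide: that of Plk1 ran from 0.16 to 0.87. A gene that misses the threshold is not shown to be the same in both kinds of line. Tests on single libraries take culture replicates as the unit. Amplified reads are not independent molecules. The RPM of 8 of the 40 genes may include reads from other transcripts that match their 3′ ends. Whether such a match lies at the 3′ end of the other transcript was not checked.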

Other observations

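Ccnb3, a B-type cyclin known from mouse meiosis and belonging to the list of other mitosis genes, had the highest difference of that list. It read 3.01 and 6.78 RPM in GSCLC_2, 10.5 and 2.70 RPM in GSCLC_3, 10.8 and 10.9 RPM in GSCLC_1 and 8.27 and 8.91 RPM in GSCLC_4, against 1.96 and 3.23 RPM in GSC_1 and 2.95 and 2.04 RPM in GSC_2. Replicate 2 of GSCLC_3 and replicate 1 of GSCLC_2 lay within the GSC values and the other 6 GSCLC libraries above them. The difference was 1.19 ± 0.36, which did not pass the threshold (adjusted p 0.109, limma, Benjamini-Hochberg). Ccnb3 reached the 5 RPM of the filter in GSCLC libraries only, so it was tested only through the lines in which it was higher.

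E2f1, a transcription factor of the G1 to S transition, and Mcm2, a helicase subunit, differed among the 6 lines, while neither passed between GSCLC and GSC lines. E2f1 read 169.7 and 132 RPM in GSCLC_2, 85.1 and 72.5 RPM in GSCLC_3, 111 and 119.6 RPM in GSCLC_1 and 114 and 114 RPM in GSCLC_4, against 108 and 116 RPM in GSC_1 and 111 and 114 RPM in GSC_2 (adjusted p 0.00899, limma F test, Benjamini-Hochberg). It was highest in GSCLC_2 and lowest in GSCLC_3, both lines of condition 2. Mcm2 read 846 and 868 RPM in GSCLC_2, 629 and 497 RPM in GSCLC_3, 532 and 629.5 RPM in GSCLC_1 and 674 and 707 RPM in GSCLC_4, against 644 and 654 RPM in GSC_1 and 522 and 529.9 RPM in GSC_2 (adjusted p 0.00633, limma F test, Benjamini-Hochberg), again highest in GSCLC_2, with the lowest library in GSCLC_3.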
